A study of Rattus norvegicus with 28 samples.

Results

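Whole-hippocampus miRNA was compared between injured rats given any of 3 antidepressants and injured rats given none. The members were the 12 miRNA arrays, of 28 arrays in the series, whose titles name TBI, imipramine, Prozac or Zoloft. The 9 drug arrays (3 each of TBI+Imipramine, TBI+Prozac and TBI+Zoloft) were pooled on 1 side and the 3 TBI arrays without a drug formed the other. All 12 came from adult male Sprague-Dawley rats with severe parasagittal fluid-percussion traumatic brain injury (TBI), a pressure pulse to the exposed dura, and tissue was taken 24 h after injury. Imipramine is a tricyclic antidepressant, and Prozac (fluoxetine) and Zoloft (sertraline) are selective serotonin reuptake inhibitors. Each drug was injected 1 h after injury. The methods give the untreated side of the antidepressant experiment a vehicle, whereas the labels of the TBI arrays name none. The comparison asks which hippocampal miRNAs differed after treatment with any of these drugs.

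MicroRNAs are short RNAs that lower the output of messenger RNAs which pair with their seed, bases 2 to 8 counted from the 5′ end. Members of a family share a seed and so share many predicted targets, even when they are made from different genes. Hippocampal miRNA is dominated by neuronal species such as miR-124 and miR-9 and by broadly expressed families such as let-7, miR-125 and miR-29, while other species mark cells that border the tissue, such as the choroid plexus and the ciliated ependyma. In whole tissue, fewer cells of a type and less RNA per cell cannot be told apart.

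The arrays carried 1806 probes for 758 miRNAs. Probes were kept if the majority of their spots exceeded background throughout 1 or more of the 4 groups, which left 265 probes for 151 miRNAs, of which 114 had 2 kept probes and 37 had 1. Levels are log2 intensities scaled to each array's own 75th percentile, taken over its detected probes, and a difference is the mean of the 9 drug arrays minus the mean of the 3 TBI arrays. All 11 neuron-enriched miRNAs looked for were kept, whereas none of the 4 striated muscle miRNAs was.

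The sequences below are those on which the results turn, with the seed in capitals. miR-204-5p had the highest difference and miR-149-5p the lowest (by the brighter probe of each miRNA), the miR-34 members share a seed, and the let-7, miR-26, miR-125 and miR-23 relatives show how members with the same seed compared. The 2 arms of miR-9a are cut from the same hairpins, and miR-342-3p and miR-22-3p were added after their values were seen. Mature sequences and positions are from RefSeq (build GRCr8), where 136 of the 151 kept miRNAs had a match.
miR-204-5p: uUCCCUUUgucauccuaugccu
miR-149-5p: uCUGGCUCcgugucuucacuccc
miR-34a-5p: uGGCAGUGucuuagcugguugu
miR-34b-5p: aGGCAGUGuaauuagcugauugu
miR-34c-5p: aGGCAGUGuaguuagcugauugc
let-7a-5p: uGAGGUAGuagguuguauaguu
let-7b-5p: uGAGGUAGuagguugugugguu
let-7f-5p: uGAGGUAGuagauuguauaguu
let-7i-5p: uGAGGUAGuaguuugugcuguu
miR-26a-5p: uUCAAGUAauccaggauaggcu
miR-26b-5p: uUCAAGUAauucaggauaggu
miR-125a-5p: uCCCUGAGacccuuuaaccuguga
miR-125b-5p: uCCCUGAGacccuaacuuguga
miR-23a-3p: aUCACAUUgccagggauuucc
miR-23b-3p: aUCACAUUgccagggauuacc
miR-9a-5p: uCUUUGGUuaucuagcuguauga
miR-9a-3p: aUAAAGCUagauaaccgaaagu
miR-342-3p: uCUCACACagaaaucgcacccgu
miR-22-3p: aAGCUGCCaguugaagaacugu
Across the 136, 19 seeds were shared by at least 2 kept miRNAs and these families held 56 miRNAs. Members of a family can be nearly identical on a hybridisation array. The let-7a-5p and let-7f-5p sequences differ at 1 of 22 bases, miR-23a-3p and miR-23b-3p at 1 of 21, and miR-34b-5p and miR-34c-5p at 2 of 23, so that some signal of 1 member may be read by the probe of another. The share was not tested.

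The arrays differed in their overall level and in their slide, and both facts touch every result below. Between 187 and 406 probes per array were well above background, and the median of the 265 kept probes ranged from -2.46 on TBI+Imipramine replicates 1 and 3 to -0.71 on TBI+Prozac replicate 1. The TBI arrays had medians of -1.97, -1.38 and -1.50, inside the range of the drug arrays. The pooled difference had a median of 0.11 over the kept probes, with 199 probes above 0 and 66 below. Within it the array-wide levels of the drug groups lay apart, since the median probe was 0.44 lower than TBI in TBI+Imipramine, 0.37 higher in TBI+Prozac and 0.41 higher in TBI+Zoloft. Levels are therefore also given relative to the array median, that is, less the median of the 265 kept probes on the same array. On that scale the median difference was 0.03, with 145 probes above 0 and 120 below. By drug it was 0.05 in TBI+Imipramine, -0.01 in TBI+Prozac and 0.03 in TBI+Zoloft. Values near 0 follow from subtracting each array's own median and are not a result about the drugs.

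**Figure D1:**
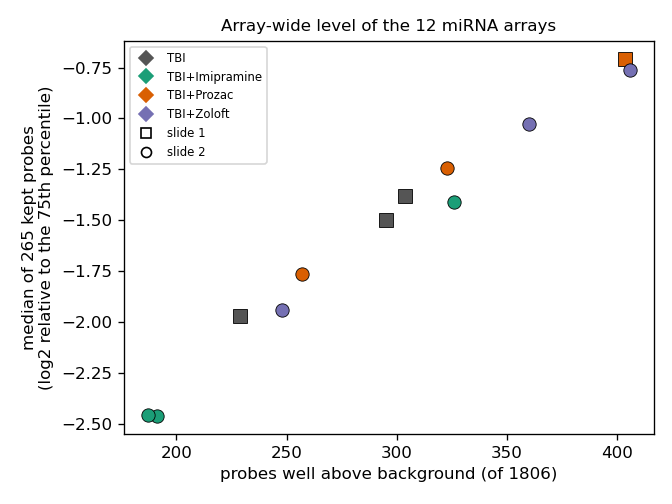
Each point is 1 of the 12 arrays. The x axis gives the number of probes well above background, the y axis the median log2 level of the 265 kept probes relative to the 75th percentile; squares are slide 1 and circles slide 2. The lowest medians, -2.46, belong to the TBI+Imipramine arrays with 191 and 187 such probes, and the highest, -0.71 and -0.76, to the TBI+Prozac and TBI+Zoloft arrays with 404 and 406.

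Per the scanner file headers, the 3 TBI arrays and TBI+Prozac replicate 1 were on 1 slide (slide 1), and the other 8 drug arrays were on another (slide 2). Drug and slide were thus linked except through that 1 array. Relative to the array median, 146 of the 265 probes of TBI+Prozac replicate 1 lay inside the range of the 3 TBI arrays, against 64 to 114 for the other 8 drug arrays. Values of TBI+Prozac replicate 1 are set beside the main results for that reason.

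miR-204-5p was the only miRNA past the threshold. It is abundant in the choroid plexus and retinal pigment epithelium, and its mature sequence lies at chr1:229743493-229743514 on the plus strand. Of 265 probes, 1 passed an adjusted p of 0.05 in limma (0.377%), the dimmer of the pair for miR-204-5p. No probe was called lower, and 4 probes (1.51%) had an unadjusted p under 0.05, all of them higher and all for miR-204-5p or miR-34b-5p. That dimmer miR-204-5p probe had a mean of -0.79 ± 1.98 (SD, n = 9) in drug arrays and -2.50 ± 0.69 (SD, n = 3) in TBI arrays, a difference of 1.71 ± 0.40 (SE, limma adjusted p = 0.00455), or 3.27-fold. The brighter probe had a difference of 1.29 ± 0.40 (SE, limma adjusted p = 0.148).

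High levels were found on 5 of the 9 drug arrays. Relative to the array median, the brighter miR-204-5p probe was at 0.69, 0.66 and 1.53 in the TBI arrays. It was at 3.78, 4.34 and 0.79 in TBI+Imipramine, at 2.67, 0.52 and 0.43 in TBI+Prozac and at 2.93, 3.54 and 0.50 in TBI+Zoloft. TBI+Imipramine replicates 1 and 2, TBI+Prozac replicate 1 and TBI+Zoloft replicates 1 and 2 thus lay above every TBI array, and the other 4 lay inside or below the TBI range, so that the groups overlapped. The dimmer probe was at -1.12, -1.28 and -0.25 in TBI and at 2.46, 3.11, 0.97, 1.59 and 2.23 in the same 5 arrays, against -1.06 to -0.84 in the other 4. Every drug group held high and low arrays. The difference relative to the array median was 1.62 ± 0.88 (SE, limma adjusted p = 0.331) for the dimmer probe and 1.21 ± 0.83 (SE, limma adjusted p = 0.463) for the brighter. The call was lost on that scale, with a similar size of difference. At the 75th percentile scale limma estimated 1 common spread, so that the SE was 0.40 for every probe, whereas relative to the array median it ran from 0.05 to 0.88 between probes. The SE and adjusted p of the call thus do not measure the variation of the dimmer miR-204-5p probe itself. With a variance trend and a robust prior at the 75th percentile scale, that probe had an SE of 1.28 (limma adjusted p = 0.998).

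The family of miR-34 and miR-449, which shares its seed with no other kept miRNA, was high on the same arrays. miR-34b-5p and miR-34c-5p are made in ciliated cells such as the ependyma, and their genes lie 441 bases apart between hairpins on chromosome 8. Relative to the array median, the brighter miR-34b-5p probe was at -0.93, -1.24 and -0.67 in TBI. It was at 1.03, 1.53 and -1.21 in TBI+Imipramine, at 0.19, -1.40 and -1.47 in TBI+Prozac and at 0.25, 0.79 and -1.41 in TBI+Zoloft. The 5 drug arrays above every TBI array were those high in miR-204-5p, and 3 of the other 4 were below every TBI array. miR-34c-5p was at -1.13, -1.44 and -0.85 in TBI, at 0.81, 1.19, -0.02, -0.07 and 0.47 in the same 5 drug arrays, and between -1.79 and -1.46 in the other 4, all below TBI. Differences at the 75th percentile scale were 0.84 ± 0.40 for miR-34b-5p and 0.75 ± 0.40 for miR-34c-5p (SE, limma adjusted p = 0.999 for each). On TBI+Imipramine replicate 3 neither the brighter miR-34b-5p probe nor the miR-34c-5p probe was well above background. miR-34a-5p, the relative made in many cell types, ranged from 0.26 to 1.53 in drug arrays and from 0.42 to 0.72 in TBI, with a difference of 0.12 ± 0.18 (SE, limma adjusted p = 0.746) relative to the array median, and 0.34 ± 0.18 (SE, limma adjusted p = 0.328) at its dimmer probe.

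**Figure D2:**
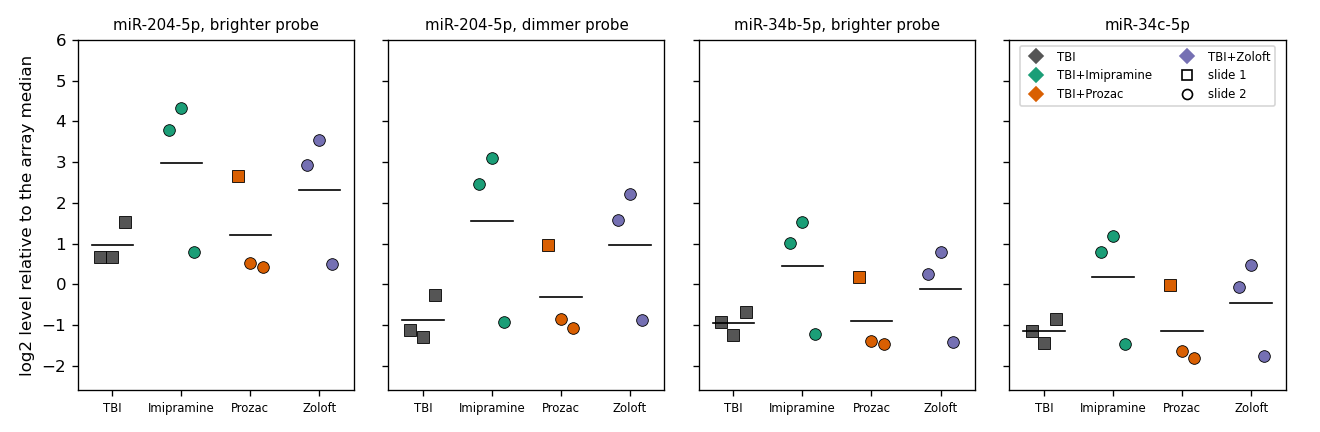
Log2 level relative to the array median (y axis) of the brighter and dimmer miR-204-5p probes, the brighter miR-34b-5p probe and the kept miR-34c-5p probe, by group (x axis). Points are arrays, bars are group means, squares are slide 1 and circles slide 2. In every panel the same 5 drug arrays lie above all 3 TBI arrays, among them the TBI+Prozac array on slide 1.

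Markers of neighbouring cell types were read on the same arrays. Of the 7 epithelial and choroid plexus miRNAs, miR-204-5p alone was kept. All probes of miR-200a, miR-200b, miR-200c, miR-141 and miR-429 were below background on all 12 arrays, and miR-211 had 1 probe above it on TBI+Imipramine replicate 2 and TBI+Zoloft replicate 2. Of the 3 ciliated ependyma miRNAs, miR-34b-5p and miR-34c-5p were kept and miR-449a was below background throughout. The summed level of the ependyma pair ran from -0.34 to 0.24 in TBI and from -0.62 to 2.37 in drug arrays relative to the array median. The part that bordering tissue in the dissected samples had in these differences was not tested. High arrays were found on both slides. Within slide 1, TBI+Prozac replicate 1 exceeded the TBI mean by 1.71 for the brighter miR-204-5p probe and by 1.14 for miR-34b-5p, while 4 of the 8 drug arrays on slide 2 were not above TBI.

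No other family held a probe past the threshold. Relative to the array median, 55 of the 265 probes (20.8%) had an unadjusted p under 0.05, 35 higher (13.2%) and 20 lower (7.55%), and the smallest limma adjusted p was 0.117. The direction depended on the probes used. Over the 168 probes above background on all 12 arrays, centred on their own median, 6 were higher (3.57%) and 33 lower (19.6%) by limma's unadjusted p. Differences for the families below are medians over members, each by its brighter probe, relative to the array median; over all 151 kept miRNAs that median was -0.03. These counts hold for the brighter probes, and several members had the other sign at their dimmer probe, as given below. Over all 151 miRNAs, 64 were above 0 and 87 below.

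let-7, the family first known for timing development and abundant in mature neurons, split by member. With let-7g-5p, 9 kept miRNAs shared its seed, 3 with differences above 0 and 6 below, and their median was -0.13. The highest was let-7f-5p at 0.07 ± 0.05 and the lowest were let-7b-5p at -0.21 ± 0.07 and let-7i-5p at -0.23 ± 0.07 (SE, limma adjusted p = 0.476, 0.166 and 0.166). The brighter let-7b-5p probe was at 4.32, 4.28 and 4.25 in TBI, at 4.18 on TBI+Prozac replicate 1, and between 3.93 and 4.25 in the drug arrays, of which 8 of 9 were below every TBI array. Its dimmer probe had a difference of -0.07 ± 0.06 (SE, limma adjusted p = 0.586). The ratio of let-7f-5p to let-7b-5p, taken on the same array and so free of any scaling, was 0.10 to 0.22 (log2) in TBI, 0.31 on TBI+Prozac replicate 1, and 0.32 to 0.60 on the other 8 drug arrays. The groups did not overlap in that ratio, which had a mean of 0.45 ± 0.11 (SD, n = 9) in drug arrays and 0.17 ± 0.06 (SD, n = 3) in TBI. It was chosen after the values were seen and was not tested. In sequence, let-7f-5p has 31.8% G and C and let-7b-5p 45.5%, the lowest (with miR-98-5p) and the highest of the family. Across the 136 miRNAs with a sequence, GC content and the difference had a Pearson r of -0.17, a weak relation given as a description over miRNAs that share arrays.

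The 2 probes of a let-7 member did not give the same difference. The dimmer let-7f-5p probe was at 2.52, 2.45 and 2.31 in TBI and from 2.53 to 3.02 in the drug arrays, with a median of 2.82. All 9 drug arrays were above TBI, TBI+Prozac replicate 1 being lowest at 2.53, and the difference of 0.41 ± 0.09 (SE, limma adjusted p = 0.117) was set beside 0.07 for the brighter probe. For let-7a-5p the dimmer probe gave 0.14 and the brighter 0.01, for let-7g-5p 0.19 and -0.06, and for let-7i-5p -0.01 and -0.23.

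**Figure D3:**
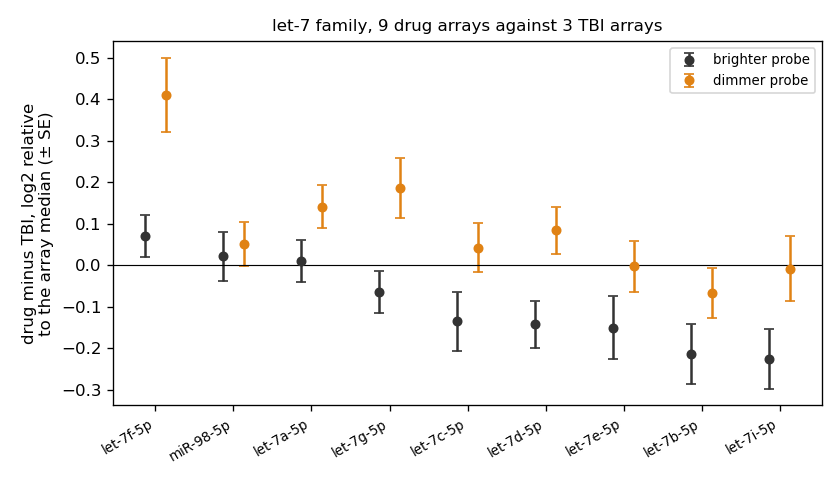
Difference of 9 drug arrays minus 3 TBI arrays, in log2 relative to the array median with its SE (y axis), for the brighter and dimmer probe of each let-7 family member (x axis). In all 9 members the dimmer probe lies above the brighter one, by the most for let-7f-5p (0.41 against 0.07).

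This gap between probes of 1 miRNA ran through the array. Of the 65 miRNAs with both probes above background on all 12 arrays, 60 had a higher drug minus TBI difference at the dimmer probe, by a median of 0.13 (log2; range -0.08 to 0.41). By array, the dimmer probe lay below the brighter by a median of 1.01 to 1.14 in TBI and by 0.84 to 0.89 on the 8 drug arrays of slide 2. TBI+Prozac replicate 1, on the slide of the TBI arrays, was inside the TBI range at 1.06. Since both probes read the same miRNA on the same array, this quantity does not depend on scaling. The difference at the dimmer probe is therefore given beside that at the brighter one for the miRNAs named below that had 2 kept probes.

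**Figure D4:**
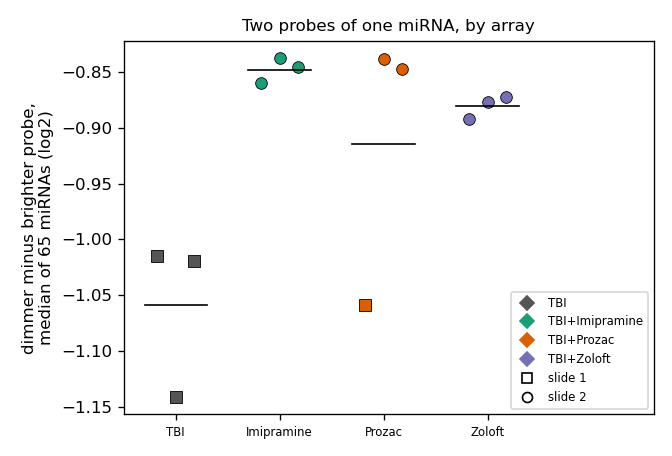
Median over 65 miRNAs of the dimmer minus the brighter probe's log2 level (y axis) for each array, by group (x axis); bars are group means, squares slide 1 and circles slide 2. The 4 arrays of slide 1, the 3 of TBI and 1 of TBI+Prozac, lie between -1.14 and -1.01, and the 8 of slide 2 between -0.89 and -0.84.

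miR-9, a regulator of neural progenitors that brain makes in large amounts, gave similar differences at both probes of its 5p arm. The brighter miR-9a-5p probe was at 4.07, 4.01 and 3.95 in TBI and at 4.02 on TBI+Prozac replicate 1, whereas the other 8 drug arrays lay between 4.32 and 4.57. The difference was 0.38 ± 0.11 (SE, limma adjusted p = 0.155) at the brighter and 0.40 ± 0.11 (SE, limma adjusted p = 0.136) at the dimmer probe. With the slide as a block, the brighter probe's difference was -0.09 ± 0.12 (SE), an estimate that rests on TBI+Prozac replicate 1. The 3p arm of the same hairpins, miR-9a-3p, had a difference of -0.13 ± 0.06 (SE, limma adjusted p = 0.285), with 8 of 9 drug arrays below every TBI array, and -0.04 ± 0.06 (SE, limma adjusted p = 0.742) at its dimmer probe. The ratio of miR-9a-5p to miR-9a-3p on an array was -0.42 to -0.34 (log2) in TBI, -0.29 on TBI+Prozac replicate 1 and 0.10 to 0.29 on the other 8. It separated the slides more widely than the groups.

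miR-26, a repressor of growth and cell cycle genes, had differences above 0 in both members. miR-26b-5p was at 0.66, 0.69 and 0.55 in TBI and from 0.77 to 1.27 in the drug arrays (median 1.04), with TBI+Prozac replicate 1 lowest, so that the groups did not overlap. Its difference was 0.37 ± 0.09 (SE, limma adjusted p = 0.136), and miR-26a-5p had 0.13 ± 0.08 (SE, limma adjusted p = 0.394) with overlap. The dimmer probes gave 0.29 for miR-26b-5p and 0.20 for miR-26a-5p, and both overlapped. In the miR-23/27/24 clusters, whose miRNAs are expressed in endothelium and glia, 3 of 5 members were above 0 with a median of 0.01 and a range of -0.02 to 0.26. miR-23a-3p was the highest, at 0.26 ± 0.09 for the brighter probe and 0.40 ± 0.08 for the dimmer (SE, limma adjusted p = 0.166 and 0.117), with no overlap at the latter, and miR-23b-3p was at -0.01 ± 0.06 for the brighter and 0.13 ± 0.05 for the dimmer (SE, limma adjusted p = 0.92 and 0.212), again with no overlap at the dimmer alone. The miR-30 family had 5 of 5 members above 0, a median of 0.10 and a range of 0.00 to 0.23, and miR-30c-5p did not overlap at either probe (0.15 and 0.23). miR-384-5p, not on that list, shares the seed of miR-30a-5p, miR-30c-5p and miR-30e-5p and had -0.13 at its brighter probe. Its dimmer probe gained 0.06 on the brighter in drug arrays. Of the 136 kept miRNAs with a matched sequence, those of that seed had 3 above 0 and 1 below, with a median of 0.05. miR-30b-5p and miR-30d-5p had no match and were outside that count.

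In the miR-125 family, regulators of neuronal differentiation and synaptic strength, miR-125a-5p was below every TBI array in 9 of 9 drug arrays, at 1.54 to 1.74 against 1.89, 1.76 and 1.79, a difference of -0.13 ± 0.06 (SE, limma adjusted p = 0.228). Its dimmer probe had 0.09 ± 0.07 (SE, limma adjusted p = 0.51), so the probes disagreed in sign. Its relative miR-125b-5p had 0.03 ± 0.07 at the brighter probe and 0.35 ± 0.10 at the dimmer (SE, limma adjusted p = 0.887 and 0.136). On TBI+Prozac replicate 1 the dimmer probe was at 2.38, next to 2.34, 2.31 and 2.29 in TBI, and the other 8 drug arrays were from 2.46 to 2.83.

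Among the remaining families, the miR-15/16 family had 1 of 6 members above 0, a median of -0.05 and a range of -0.20 to 0.39. Its member above 0, miR-15a-5p, was well above background on 1 of 3 TBI and 6 of 9 drug arrays, so it was kept through a drug group alone. The miR-17-92 and related clusters had 3 of 8 above 0, a median of -0.08 and a range of -0.24 to 0.10, the miR-29 family 1 of 3, -0.02 and -0.04 to 0.03, and the miR-181 family 0 of 3, -0.06 and -0.14 to -0.03. The pair of miR-221 and miR-222 had 2 of 2 and 0.14, the miR-99/100 family 2 of 3 and 0.08 (-0.03 to 0.15), and the pair of miR-103 and miR-107 0 of 2 and -0.06. The 3 oligodendrocyte miRNAs were all above 0 with a median of 0.03, of which miR-219a-5p, needed for myelinating cells to mature, had 0.21 ± 0.09 at the brighter and 0.28 ± 0.09 at the dimmer probe (SE, limma adjusted p = 0.212 and 0.166). The neuron-enriched miRNAs had 3 of 11 above 0, a median of -0.05 and a range of -0.20 to 0.38, the highest being miR-9a-5p. Their most abundant member, miR-124-3p, was at 5.37, 5.33 and 5.48 in TBI and from 5.20 to 5.44 in drug arrays, a difference of -0.05 ± 0.07 (SE, limma adjusted p = 0.702), with 0.02 at its dimmer probe.

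Of the miRNAs listed for the Dlk1-Dio3 cluster, a large imprinted group of neuronal miRNAs, 25 of 46 were kept, and 20 of the 25 were below 0 (87 of 151 for all kept miRNAs), with a median of -0.10 and a range of -0.28 to 0.52. The highest was miR-494-3p, at 1.43, 1.42 and 1.31 in TBI and from 1.22 to 3.50 in drug arrays, a difference of 0.52 ± 0.36 (SE, limma adjusted p = 0.47), with 0.45 at its dimmer probe. Its highest arrays were TBI+Imipramine replicate 1 at 3.50 and TBI+Zoloft replicate 3 at 2.91. miR-300-3p did not overlap (0.11 to 0.54 in drug arrays against 0.61, 0.63 and 0.61 in TBI), with -0.22 at this brighter probe and -0.06 at the dimmer, where the groups overlapped. miR-410-3p had -0.26 ± 0.10 at the brighter and -0.25 ± 0.07 at the dimmer probe (SE, limma adjusted p = 0.189 and 0.161). The list was incomplete, since miR-341, miR-380-3p and miR-376b-5p lie among its members on chromosome 6 and were kept but not listed. Their differences were -0.23, -0.10 and 0.16 in that order, each by its brighter or only kept probe.

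Lower levels in all 9 drug arrays were also seen in 2 miRNAs outside these families, named after their values were seen. miR-342-3p, made from an intron of Evl, was at 0.51, 0.49 and 0.48 in TBI and from 0.00 to 0.45 in the drug arrays, where TBI+Prozac replicate 1 was highest. The difference was -0.25 ± 0.08 at the brighter and -0.29 ± 0.08 at the dimmer probe (SE, limma adjusted p = 0.166 and 0.136). miR-22-3p was at 3.19, 3.14 and 3.16 in TBI and from 2.91 to 3.14 in drug arrays, with TBI+Prozac replicate 1 at 2.98, inside the range of the other drug arrays. Its brighter probe had -0.16 ± 0.05 and its dimmer 0.16 ± 0.08 (SE, limma adjusted p = 0.166 and 0.262), so the probes disagreed in sign. miR-149-5p, the lowest at the 75th percentile scale (-0.20 ± 0.40, SE, limma adjusted p = 0.999), was at 0.21, 0.25 and 0.19 in TBI and 0.29 on TBI+Prozac replicate 1, above them all, with the other 8 between -0.34 and 0.03.

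No probe separated the 9 drug arrays from the 3 TBI arrays at the 75th percentile scale (0%), and relative to the array median 14 did so (5.28%), 9 higher (3.4%) and 5 lower (1.89%). The 9 were for miR-135a-5p, let-7f-5p, miR-23a-3p, miR-26b-5p, miR-125b-5p, miR-148b-3p, miR-30c-5p (2 probes) and miR-23b-3p, and the 5 for miR-342-3p (2 probes), miR-300-3p, miR-22-3p and miR-125a-5p. Of the 9, 6 were dimmer probes (all but miR-135a-5p, miR-26b-5p and 1 of miR-30c-5p), the kind that lay higher against its partner in 60 of 65 pairs. For miR-148b-3p the dimmer probe had a difference of 0.24 and the brighter -0.06. The miR-135a-5p probe was kept through a drug group alone, so its place among the 9 is no support for a difference. For miR-135a-5p, TBI+Imipramine replicate 1 was at the floor set for dim signals, -4.05 at the 75th percentile scale, below every TBI array. It lay above the TBI arrays only after its array median was subtracted. All 5 lower ones were brighter probes except 1 of miR-342-3p. None of the 14 passed the adjusted threshold. Over the 168 probes above background on all 12 arrays, centred on their own array median, 0 of 168 passed (0%) and 39 had an unadjusted p under 0.05 (23.2%), 6 of them higher (3.57%) and 33 lower (19.6%). Without TBI+Prozac replicate 1, 21 passed (12.5%), 4 higher (2.38%) and 17 lower (10.1%), among them both probes of miR-9a-5p and of miR-342-3p. With the slide as a block none passed and none had an unadjusted p under 0.05. That fit takes the slide effect from the Prozac arrays alone, through TBI+Prozac replicate 1. Its errors were wider (SE 1.61 against 0.86 for the dimmer miR-204-5p probe), so the loss of calls does not separate slide from drug. Leaving out TBI+Imipramine replicate 1 gave 14 calls and leaving out TBI+Imipramine replicate 3 gave 19. Drug and slide cannot be told apart in these 21.

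**Figure D5:**
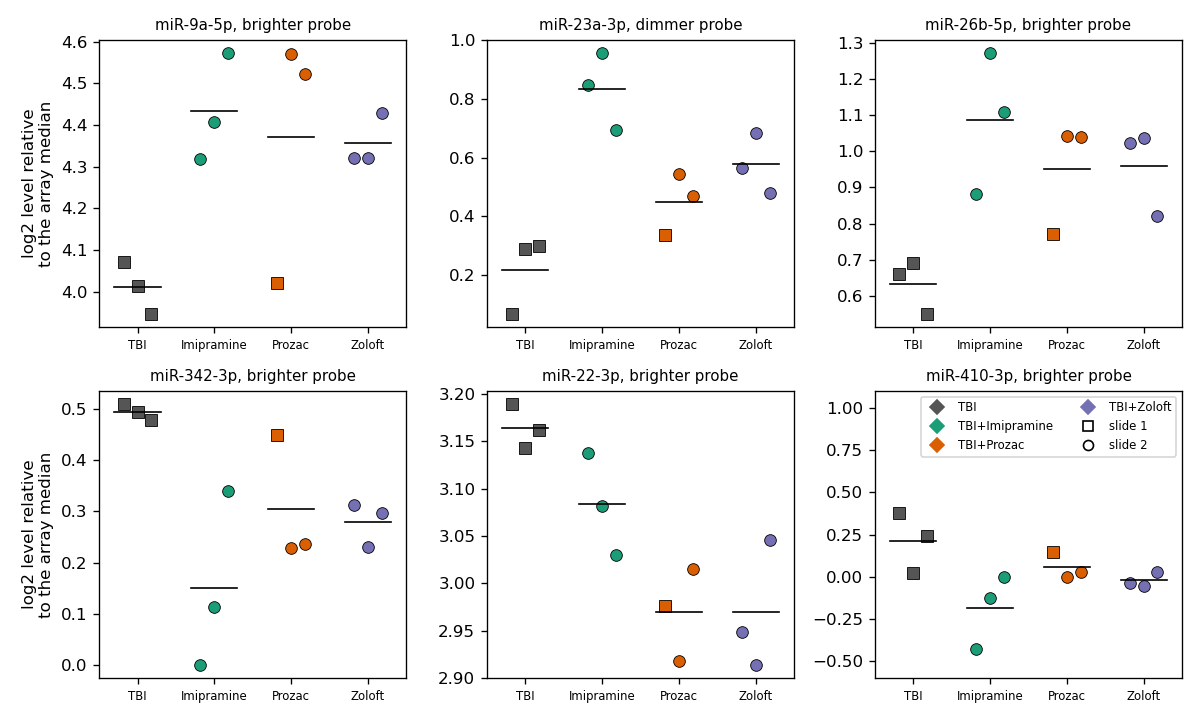
Log2 level relative to the array median (y axis) by group (x axis) for 6 probes; points are arrays, bars group means, squares slide 1 and circles slide 2. For miR-9a-5p, miR-342-3p and miR-410-3p the TBI+Prozac array on slide 1 lies within or next to the TBI arrays, at 4.02, 0.45 and 0.15, and for miR-22-3p it lies with the other drug arrays at 2.98.

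Of 6 miRNAs that the study names, 5 were kept, and 2 of the 5 had differences above 0 relative to the array median at their brighter probes. Besides miR-9a-5p and miR-124-3p, these were miR-16-5p, miR-132-3p and miR-212-3p. miR-16-5p, known to repress the serotonin transporter, was at 2.65, 2.73 and 2.48 in TBI and from 2.20 to 2.79 in drug arrays, a difference of -0.03 ± 0.12 (SE, limma adjusted p = 0.904), while its dimmer probe had 0.29 ± 0.13 (SE, limma adjusted p = 0.228). miR-132-3p, which neuronal activity raises through CREB, was at 1.61, 1.73 and 1.70 and from 1.18 to 2.01, a difference of -0.09 ± 0.12 (SE, limma adjusted p = 0.702), with 0.08 ± 0.13 (SE, limma adjusted p = 0.748) at the dimmer probe. miR-212-3p, from the same cluster, was at -0.34, -0.34 and -0.05 in TBI, at 2.02 on TBI+Imipramine replicate 1, and between -0.47 and 0.02 on the other 8 drug arrays. Its difference of 0.28 ± 0.37 (SE, limma adjusted p = 0.713) rested on that 1 array, which was also the highest at the dimmer probe, where the difference was 0.33. miR-135a-5p, another repressor of the serotonin transporter and listed for that reason, was dim. Its brighter probe was at -1.71, -1.95 and -1.86 in TBI, where 2 of 3 arrays were above background, and from -1.65 to -0.87 in drug arrays, where 7 of 9 were, a difference of 0.56 ± 0.14 (SE, limma adjusted p = 0.136). TBI+Imipramine replicate 1, at -1.59, held the floor value rather than a measured level. At the 75th percentile scale that array was at -4.05, below the TBI arrays at -3.68 to -3.33. The difference therefore rests in part on that floor value. With 2 of 3 TBI arrays above background, this brighter probe was kept through a drug group alone. The other miR-135a-5p probe was not well above background on any TBI array or on 3 of the 9 drug arrays. It too was kept through a drug group alone, and no fold is given (limma adjusted p = 0.999).

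Markers of blood and injury response also ranged widely among the drug arrays. miR-142-3p of leukocytes was at -0.86, -1.59 and -1.24 in TBI and from -1.48 to 0.06 in drug arrays, highest on TBI+Imipramine replicate 2. Its brighter and dimmer probes had differences of 0.33 and -0.18. The other leukocyte miRNAs, miR-142-5p and miR-223-3p, were not kept. miR-451-5p of red blood cells was at -0.64, -0.99 and -1.17 and from -1.67 to 0.33, with differences of 0.05 and 0.29 at its brighter and dimmer probes. miR-21-5p, which rises in reactive glia, was at 2.66, 2.68 and 2.07 and from 2.03 to 2.96, a difference of -0.04 ± 0.14 (SE, limma adjusted p = 0.91), whereas its dimmer probe had 0.29 ± 0.17 (SE, limma adjusted p = 0.387).

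The 3 drugs did not differ from each other at any probe by limma's moderated F test at the 75th percentile scale (0 of 265, 0%; 39, or 14.7%, at an unadjusted p under 0.05). For miR-204-5p the brighter probe differed from TBI by 2.01 in TBI+Imipramine, 0.25 in TBI+Prozac and 1.36 in TBI+Zoloft relative to the array median, with F test adjusted p = 0.571. For miR-9a-5p the same 3 differences were 0.42, 0.36 and 0.35, and for let-7b-5p they were -0.15, -0.24 and -0.25. With 3 arrays a drug, these values do not show that the drugs acted alike.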

How the data were processed

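Whole-hippocampus RNA of 12 injured rats was hybridised to 1-colour Agilent rat miRNA arrays. The authors scanned them and read them with Agilent Feature Extraction 11.5.1.1, which the submitters' processing notes name and whose version is per the file headers. The deposited scanner files hold spot intensity on a linear scale after the software's background removal, and flags of another kind (0 or 1) for spots well above background, outlier spots and saturated spots; no spot of a kept probe was saturated. Processed intensity values that the authors deposited in the series table served as an alternative. Groups and replicate numbers came from titles. Replicates carry different animal numbers in their titles. The number of arrays limits the precision.

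Outlier and control spots were left out and a probe's processed signals were averaged. Signals were scaled by each array's 75th percentile over detected probes (over 0.5 of spots above background), following the study's methods, then set to a floor of 0.0604 and log2 transformed. Differences were tested two-sided in R 4.3.3 by moderated linear models (limma 3.58.1), with 4 group means and Benjamini-Hochberg adjustment over the 265 kept probes. The script was tested on simulated data with independent noise at each probe. These held no array-wide shift and no slide effect, so that test gives no error rate for the real arrays. Probes of a miRNA were kept apart, and "brighter" means the higher mean over 12 arrays. By rule, miRNAs past the threshold (up to 12 each way), non-overlapping ones (up to 10), and members of chosen lists were named; exceptions are stated. The members and lists were chosen with earlier results of these data known, so lists carry no test. Alternatives were other scalings, filters, models and left-out arrays. The scanner files lack a mean signal column, so normexp used the median signal. The Sham and gene expression arrays were not used here. Sequences came from RefSeq.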

Additional observations from a re-analysis of the deposited data

Results flagged for a closer look

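Among 31 quantities checked over the 9 drug arrays, 6 miRNAs had 1 array set apart from the rest by more than Dixon's critical value of 0.493, a test that flags about 1 in 20 groups by chance. The values are the gap to the nearest array as a share of the range, relative to the array median. For miR-9a-5p the share was 0.539, with TBI+Prozac replicate 1 lowest at 4.02 and the next array at 4.32. For miR-212-3p it was 0.803, with TBI+Imipramine replicate 1 highest at 2.02. That array was also the lowest for miR-125b-5p (0.597), for miR-410-3p (0.526) and for miR-16-5p (0.522). For miR-34a-5p the share was 0.516, with TBI+Zoloft replicate 1 highest at 1.53.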

How the results depend on the processing

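At the 75th percentile scale, 1 probe passed, and every alternative kept miR-204-5p higher, though its size varied. The dimmer probe's 1.71 and the brighter probe's 1.29 became 0.57 and 0.25 with array weights (limma adjusted p = 0.189 and 0.606), 4.12 and 3.95 with the slide as a block, and 0.98 by total signal of the miRNA. No probe passed (0) with the percentile over probes above background on all 12 arrays, median centring, quantile normalization, no filter on dim probes, total signal per miRNA, the series table, a variance trend with a robust prior, or the methods' t-test before and after Benjamini-Hochberg adjustment (0 and 0); 0 also passed without all TBI+Zoloft arrays, on the drug arrays of slide 2 alone, and with centring combined with the slide as a block, with slide 1 alone, or with the 168 probes alone. Calls rose to 51 (all higher, median of all probes 0.60) with the percentile over all probes, to 13 (10 higher, 3 lower) with array weights, to 5 with the slide as a block and to 5 within slide 1, to 2 with the slide as a random block and to 2 without all TBI+Prozac arrays, to 10 with median centring on the drug arrays of slide 2, and to 21 with the 168 probes on those arrays. Leaving out single arrays gave 0 to 2 calls at the 75th percentile scale, with none left on leaving out any of TBI replicates 1 and 2, TBI+Zoloft replicates 1 and 2, TBI+Imipramine replicate 2 and TBI+Prozac replicate 1. Over the 168 centred probes it gave 0 to 21, with 14 without TBI+Imipramine replicate 1, 19 without TBI+Imipramine replicate 3 and 21 without TBI+Prozac replicate 1. For the difference among drugs, 0 calls became 264 with array weights, 2 with the slide as a block and 2 on the drug arrays of slide 2, and 0 to 194 on leaving out single arrays, 194 without TBI+Imipramine replicate 2 (0 to 1 over the 168 centred probes). The median of all 265 probes moved from 0.11 to 0.76 with the slide as a block and to 0.87 within slide 1. The family medians below include that array-wide shift. The median of the let-7 family moved from -0.05 to 0.78 with the slide as a block and 0.89 within slide 1. That of the miR-23/27/24 clusters moved from 0.09 to 0.85 and 0.93. That of the family of miR-34 and miR-449 moved from 0.75 to 2.96 with the slide block, and that of the neuron-enriched miRNAs from 0.03 to 0.84 within slide 1. Leaving out single arrays gave medians from -0.21 to 0.08, from -0.10 to 0.25, from 0.47 to 1.08 and from -0.16 to 0.14 for these 4 lists in that order. Over the 168 centred probes they were from -0.27 to -0.18, from -0.12 to -0.05, from -0.05 to 0.09 (miR-34a-5p alone, since miR-34b-5p and miR-34c-5p drop out there) and from -0.18 to -0.12. The cause was not tested. Of the array weights, the fit did not fully converge. Same-numbered rats shared only a number: their deviations correlated over 0.1 in 6 of 18 pairs (range -0.50 to 0.67), and with the replicate block 1 probe passed (0 among the 168 centred probes). The median-centred settings on slide 2, on the slide block and on the 168 probes were chosen after seeing the data. Dim probes limit what can be said of the 97 kept probes below background on at least 1 array.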
